A study of Mus musculus with 8 samples.

Results

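The 10 genes described here carry the class I antigen presentation pathway and 1 immune privilege marker of the hair follicle. They were taken as a list of gene names, and that list was drawn up with earlier results of these data known. They were B2m, H2-K1, H2-D1, Tap1, Tap2, Tapbp, Psmb8, Psmb9, Nlrc5 and Cd200. Every probe set annotated to one of these genes alone was kept, which gave 27 of the 45037 probe sets on the array and 10 of its 18193 named genes. A further 3 probe sets shared with another gene were left out. Of the 27 probe sets, 19 were above background on all 8 arrays, 2 were below it on all 8, and 6 were mixed.

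RNA from sorted mouse skin cells was hybridised to 8 Affymetrix 430 2.0 arrays, in 4 groups of 2 arrays. Cells positive for K15-GFP and α6-integrin were split by CD34, and the CD34+ cells are labelled bulge and the CD34- cells hair germ. Each population came from wild-type (WT) mice and from Runx1 iTG mice, which the source label calls Tet-on Runx1 transgenic. All samples, WT included, were sorted through the K15-GFP reporter, and all mice ate food with doxycycline (1 g per kg) during 1 day. According to the treatment note this was done to shut off H2BGFP. What drives the Runx1 transgene is not stated. The mice were 20 days old, at a stage labelled telogen, except that replicate 2 of both Runx1 iTG populations was 21 days old. Nothing says whether same-numbered samples of both populations came from the same mice.

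Class I molecules show fragments of a cell's own proteins to CD8 T cells. The proteasome cuts the proteins, the TAP transporter moves the peptides into the endoplasmic reticulum, and a loading complex places them on a heavy chain paired with beta-2 microglobulin. Interferon signalling and the transactivator NLRC5 raise many of these genes together. The hair follicle is known for immune privilege, a state with low class I display and with inhibitory molecules such as CD200.

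The genes lie in the arrangement shown by the coordinates (GRCm38.p6, RefSeq). Psmb9 (chr17:34182030-34187330), Tap1 (chr17:34187556-34197225), Psmb8 (chr17:34198195-34201454) and Tap2 (chr17:34204479-34216321) form a cluster of 34292 bases in the major histocompatibility region of chromosome 17. Tapbp (chr17:33919478-33929290), H2-K1 (chr17:33996012-34000619) and H2-D1 (chr17:35263094-35267497) lie on the same chromosome, and B2m (chr2:122147687-122153082) and Cd200 (chr16:45382111-45409060) lie elsewhere. Psmb9 and Tap1 are transcribed away from each other, with 225 bases between their starts. Of the 10 genes, 8 had a promoter entry in RefSeq, and Tap2 and Nlrc5 had none in the tables used.

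Upstream sequence is given for the light chain gene B2m and for the immunoproteasome genes among the members, Psmb8 and Psmb9. The B2m and Psmb8 runs are the 250 bases before the start, and the last run is the whole interval shared by Psmb9 and Tap1. Capitals mark a match to the interferon-stimulated response element (ISRE, GAAANNGAAA) in B2m and to the gamma-activated site (GAS, TTCNNNGAA) in Psmb8, on the plus strand of GRCm38.p6. No other member with a promoter entry had a match to either, so the runs shown are not typical of the members.
B2m chr2:122147437-122147686: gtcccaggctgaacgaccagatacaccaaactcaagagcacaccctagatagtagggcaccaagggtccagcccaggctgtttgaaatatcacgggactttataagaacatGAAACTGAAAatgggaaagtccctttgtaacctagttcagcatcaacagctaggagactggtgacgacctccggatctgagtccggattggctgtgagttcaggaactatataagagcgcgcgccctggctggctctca
Psmb8 chr17:34197945-34198194: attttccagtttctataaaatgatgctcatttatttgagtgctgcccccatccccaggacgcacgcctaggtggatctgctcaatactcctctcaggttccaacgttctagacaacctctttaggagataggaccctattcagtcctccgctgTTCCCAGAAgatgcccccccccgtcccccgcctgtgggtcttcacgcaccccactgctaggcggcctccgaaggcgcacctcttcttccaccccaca
Psmb9 and Tap1 chr17:34187331-34187555: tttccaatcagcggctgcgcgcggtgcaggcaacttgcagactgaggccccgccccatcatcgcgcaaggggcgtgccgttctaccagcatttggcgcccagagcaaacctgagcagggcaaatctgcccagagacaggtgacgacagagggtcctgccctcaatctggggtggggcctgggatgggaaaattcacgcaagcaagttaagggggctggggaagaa

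The ISRE match lies 139 to 130 bases before the B2m start, and the GAS match lies 97 to 89 bases before the Psmb8 start. Both strands of the 250 bases before each of 32851 RefSeq promoter starts were searched. The ISRE letters were found in 2.98% of them, the GAS letters in 7.02% and the RUNX letters TGTGGT in 14.0%. Each of the 3 motifs had a match in 1 of the 8 members with an entry, and the RUNX letters matched in Tapbp only. The interval between Psmb9 and Tap1 held none of the 3. A match describes letters in this window and no binding was measured.

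The arrays were scaled to one level and carried the labelled genotype. Deposited medians, which this scaling leaves free, were 132 to 162 on the bulge arrays and 102 to 127 on the hair germ arrays. Between 69.0% and 77.0% of probe sets per array lay above a background limit of 31.1, which is the 95th percentile of the 27 Bacillus subtilis control probe sets. The share was 73.6% to 77.0% in bulge and 69.0% to 73.7% in hair germ. All signals below are deposited intensities scaled to a common 75th percentile, with a median of 124 over all probe sets. Runx1 read 658 and 904 in WT bulge, 495 and 489 in WT hair germ, 19461 and 13699 in Runx1 iTG bulge, and 12107 and 12882 in Runx1 iTG hair germ. In each group, replicate 1 carried Y-linked signal (Eif2s3y at 1853 to 2425) and replicate 2 carried Xist at 9973 to 11103, so the spread within a group includes sex. The sort gene Cd34 separated the populations, at 4902 to 11208 in bulge and at 53.2 or less in hair germ. Of 10 bulge markers, 9 were called lower in the population labelled hair germ. Of 8 measured hair germ markers, however, 6 were also called lower there and 1, Edar, was called higher. The label hair germ is therefore used below for the CD34- sort and not as a cell identity shown by these markers.

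Of the 10 genes, 4 were higher in hair germ than in bulge when the difference was averaged over both genotypes: Psmb8, Psmb9, Nlrc5 and H2-K1. A gene was called at a Benjamini-Hochberg adjusted p under 0.05 over all probe sets in limma, and each gene was read from its brightest probe set. The 4 calls of 10 compare with 14.0% of all probe sets called in either direction and 6.63% called higher. The median difference of the 10 genes was 0.44 on the log2 scale, against -0.14 for all probe sets. In WT alone 2 genes were called, Psmb8 and Psmb9, against 4.61% of all probe sets in either direction and 2.02% higher. In Runx1 iTG 3 were called, Psmb8, Psmb9 and Nlrc5, against 6.98% in either direction and 3.08% higher. For 7 of the 10 genes, all 4 hair germ arrays lay above all 4 bulge arrays, a pattern held by 8.71% of all probe sets. The shares over all probe sets, here and below, include dim ones. The brightest probe sets of the 10 genes were above background on all 8 arrays, at percentiles 63.8 to 99.8 of mean signal. The shares were not taken among probe sets of like brightness. These are bulk samples, so fewer cells of a type and less RNA per cell cannot be told apart.

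**Figure D1:**
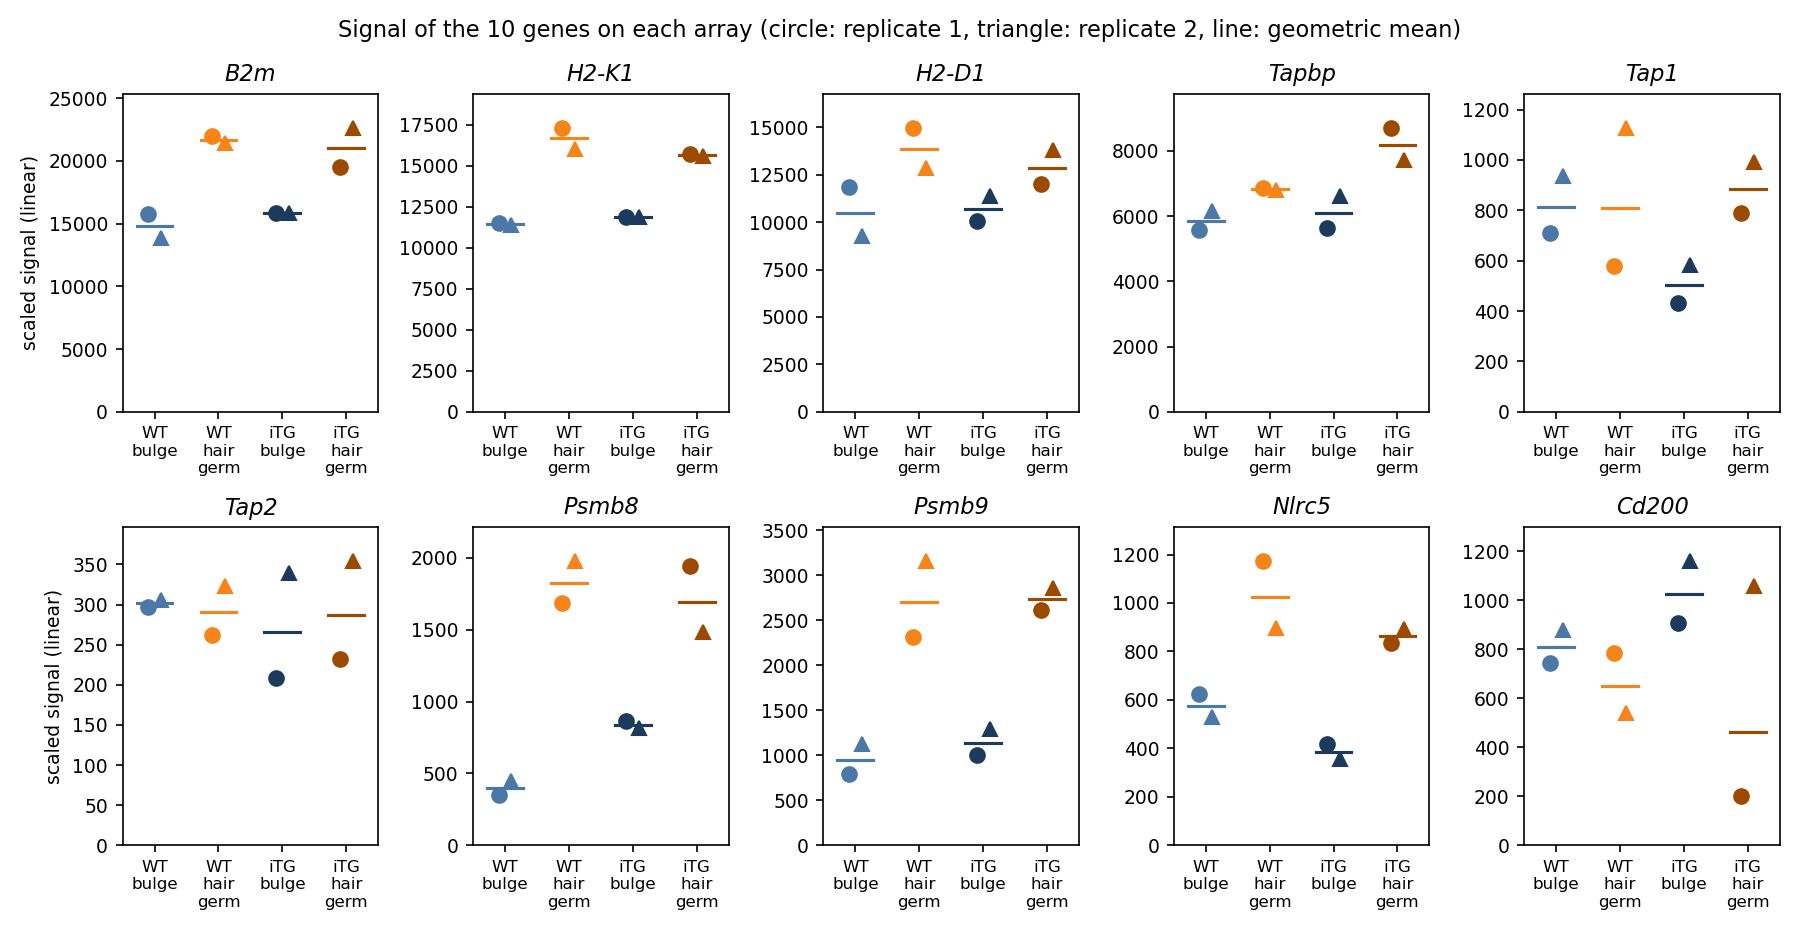
Scaled signal of each gene's brightest probe set on a linear axis that starts at 0, for the 4 groups, with a circle for replicate 1, a triangle for replicate 2 and a line for the geometric mean. In B2m, H2-K1, H2-D1, Tapbp, Psmb8, Psmb9 and Nlrc5 every hair germ point lies above every bulge point, while Tap1, Tap2 and Cd200 overlap.

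The proteasome subunits Psmb8 and Psmb9 had the widest averaged differences of the 10 genes. Psmb8 encodes the immunoproteasome subunit that replaces Psmb5 in the catalytic core. Its signal was 353 and 446 in WT bulge, 1685 and 1978 in WT hair germ, 862 and 816 in Runx1 iTG bulge, and 1943 and 1481 in Runx1 iTG hair germ. WT bulge was lowest, Runx1 iTG bulge lay between, and the hair germ arrays of both genotypes overlapped each other. Psmb8 was 4.60-fold higher in hair germ than in bulge in WT (log2 difference 2.20, SE 0.26, n = 2 per group, limma adjusted p = 0.00142). In Runx1 iTG it was 2.02-fold higher (log2 difference 1.02, SE 0.26, limma adjusted p = 0.0446). The WT call held in 17 of 18 alternative settings, while the Runx1 iTG call held in 3 of 18 and was lost whichever array was left out. A second Psmb8 probe set was below background on all 8 arrays and gave no level.

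Psmb9, which replaces Psmb6, read 789 and 1127 in WT bulge and 2310 and 3158 in WT hair germ. In Runx1 iTG it read 1005 and 1295 in bulge and 2614 and 2857 in hair germ. The 4 bulge arrays and the 4 hair germ arrays did not overlap. The difference was 2.86-fold in WT (log2 difference 1.52, SE 0.27, limma adjusted p = 0.013) and 2.39-fold in Runx1 iTG (log2 difference 1.26, SE 0.27, limma adjusted p = 0.0232). Averaged over both genotypes it was 1.39 (SE 0.19, limma adjusted p = 0.00126), a call that held in all 17 alternatives run on it. The WT call was lost in 6 of 18 alternatives, 3 of which left out an array (adjusted p up to 0.135). The Runx1 iTG call was lost in 7 of 18, 4 of which left out an array (adjusted p up to 0.23).

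The rest of the immunoproteasome list moved with these genes. All 4 measured members of the list of 5 were called higher in hair germ, with a median log2 difference of 1.42, against -0.09 for all named genes. Here and in the lists below, calls are for the averaged difference, in which 14.0% of all probe sets were called. Psmb10, the third inducible catalytic subunit, was higher by 1.45 (SE 0.27, limma adjusted p = 0.00593), and Psme1, a subunit of the PA28 activator, by 0.93 (SE 0.16, limma adjusted p = 0.00398). The standard proteasome was higher too. All 15 of its measured genes had a higher mean in hair germ, 7 of them called, with a median of 0.71. With 1 array left out the 7 calls became 1 without WT hair germ replicate 2, 2 without Runx1 iTG bulge replicate 2 or Runx1 iTG hair germ replicate 1, 3 without WT bulge replicate 2 and 4 without Runx1 iTG hair germ replicate 2. Psmb5, which Psmb8 replaces, was higher by 1.03 (SE 0.24, limma adjusted p = 0.0193), and Psmb6, which Psmb9 replaces, gave 0.57 (SE 0.22, limma adjusted p = 0.12). None of the 7 standard proteasome calls was made without an intensity trend in the variance or with the 20-day arrays alone, where 2 of the 4 immunoproteasome calls were also lost.

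Ratios within an array compared each inducible subunit with the standard subunit it replaces, a choice made after these values were seen. The log2 ratio of Psmb8 to Psmb5 was -0.14 ± 0.34 (SD, n = 4) in hair germ and -0.72 ± 0.69 (SD, n = 4) in bulge. That difference of 0.58 was within the scatter of the arrays (2-sided exact permutation p = 0.171, adjusted p = 0.171 over 4 ratios). Psmb9 to Psmb6 differed by 0.82 (2-sided exact permutation p = 0.0571, adjusted p = 0.114), and Psmb10 to Psmb7 by 0.73 (exact permutation p = 0.171, adjusted p = 0.171). These tests took the 4 arrays of a population as exchangeable across genotypes. The ratio of Psmb9 to its neighbour Tap1 was picked because only Psmb9 separated the populations, so it is given as a description. It was nevertheless among the 4 ratios adjusted over, so the adjusted p of Psmb9 to Psmb6 depends on it. The Psmb9 to Tap1 ratio was 1.68 ± 0.23 (SD, n = 4) in hair germ and 0.70 ± 0.56 (SD, n = 4) in bulge. The lowest values of this ratio, 0.16 and 0.27, were those of WT bulge.

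**Figure D2:**
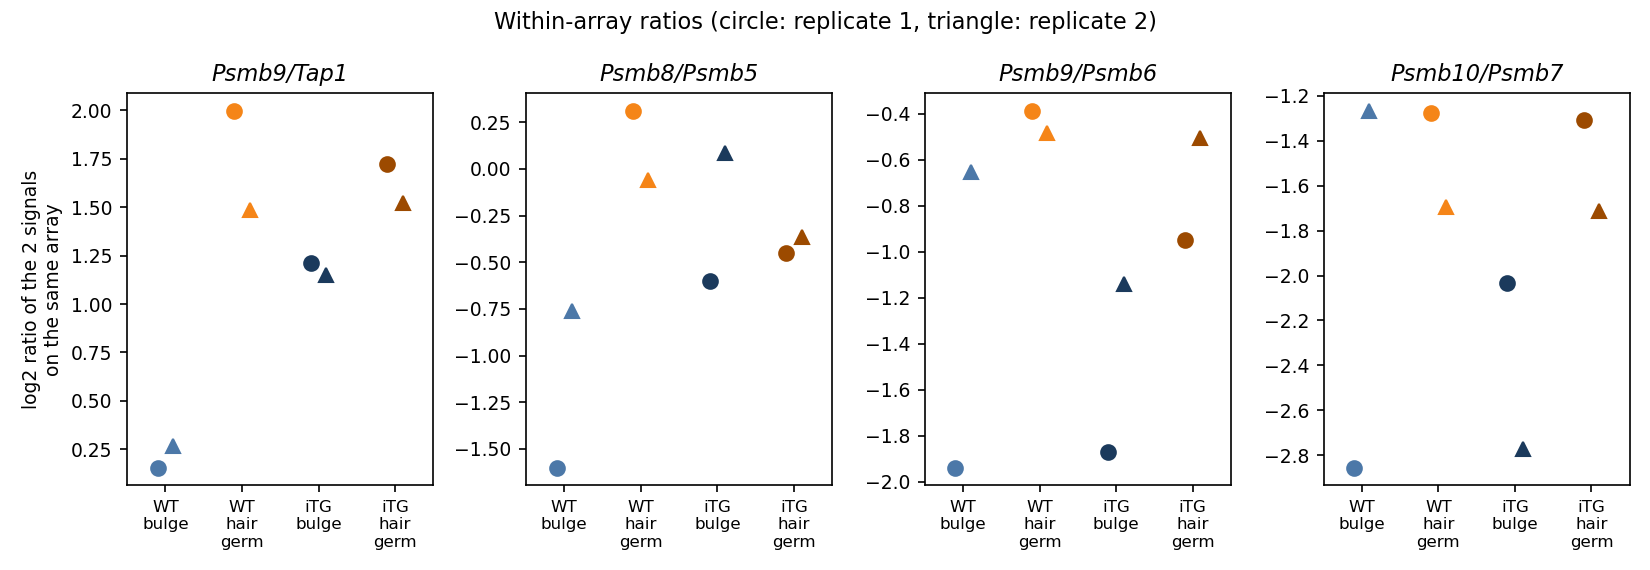
Log2 ratio of the signals of a pair of genes on the same array, by group, with a circle for replicate 1 and a triangle for replicate 2, and a separate vertical axis per panel that does not start at 0. Psmb9/Tap1 separates hair germ (1.48 or more) from bulge (1.21 or less), and the other ratios overlap between the populations.

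Neither TAP gene was called in hair germ against bulge. Tap1 and Tap2 encode the subunits of the TAP transporter. Tap1 read 708 and 936 in WT bulge, 579 and 1128 in WT hair germ, 434 and 584 in Runx1 iTG bulge, and 791 and 994 in Runx1 iTG hair germ. The WT groups overlapped, and the Runx1 iTG bulge arrays were lower than both Runx1 iTG hair germ arrays. The Tap1 difference between hair germ and bulge was -0.01 in WT (SE 0.36, limma adjusted p = 0.996) and 0.82 in Runx1 iTG (SE 0.36, limma adjusted p = 0.236). Tap2 read between 208 and 354 over all 8 arrays, with every group overlapping another. Its averaged difference was 0.03, with a 95% interval from -0.59 to 0.65, which leaves room for a change of that size in either direction. Of the 3 other Tap1 probe sets, none was above background on all arrays.

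Tapbp encodes tapasin, which bridges TAP to the heavy chain. It read 5568 and 6155 in WT bulge, 6850 and 6783 in WT hair germ, 5631 and 6613 in Runx1 iTG bulge, and 8709 and 7704 in Runx1 iTG hair germ. No hair germ array fell into the bulge range, but the averaged difference of 0.32 (SE 0.14) was not called (limma adjusted p = 0.184). Its second probe set gave 0.36 (SE 0.19, limma adjusted p = 0.272). In the loading list of 8 genes all had a higher mean in hair germ and 3 were called, with a median of 0.44, beside the 14.0% of all probe sets. They were Canx, a chaperone of new heavy chains (1.07, SE 0.18, limma adjusted p = 0.00391), Erap1, which trims peptides (1.33, SE 0.24, limma adjusted p = 0.00514), and Tapbpl, a tapasin-related editor (0.91, SE 0.21, limma adjusted p = 0.0173). Without an intensity trend, or with the 20-day arrays alone, 1 of the 3 remained a call. The Tapbpl call was lost in 7 of 17 alternatives, 5 of which left out an array.

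**Figure D3:**
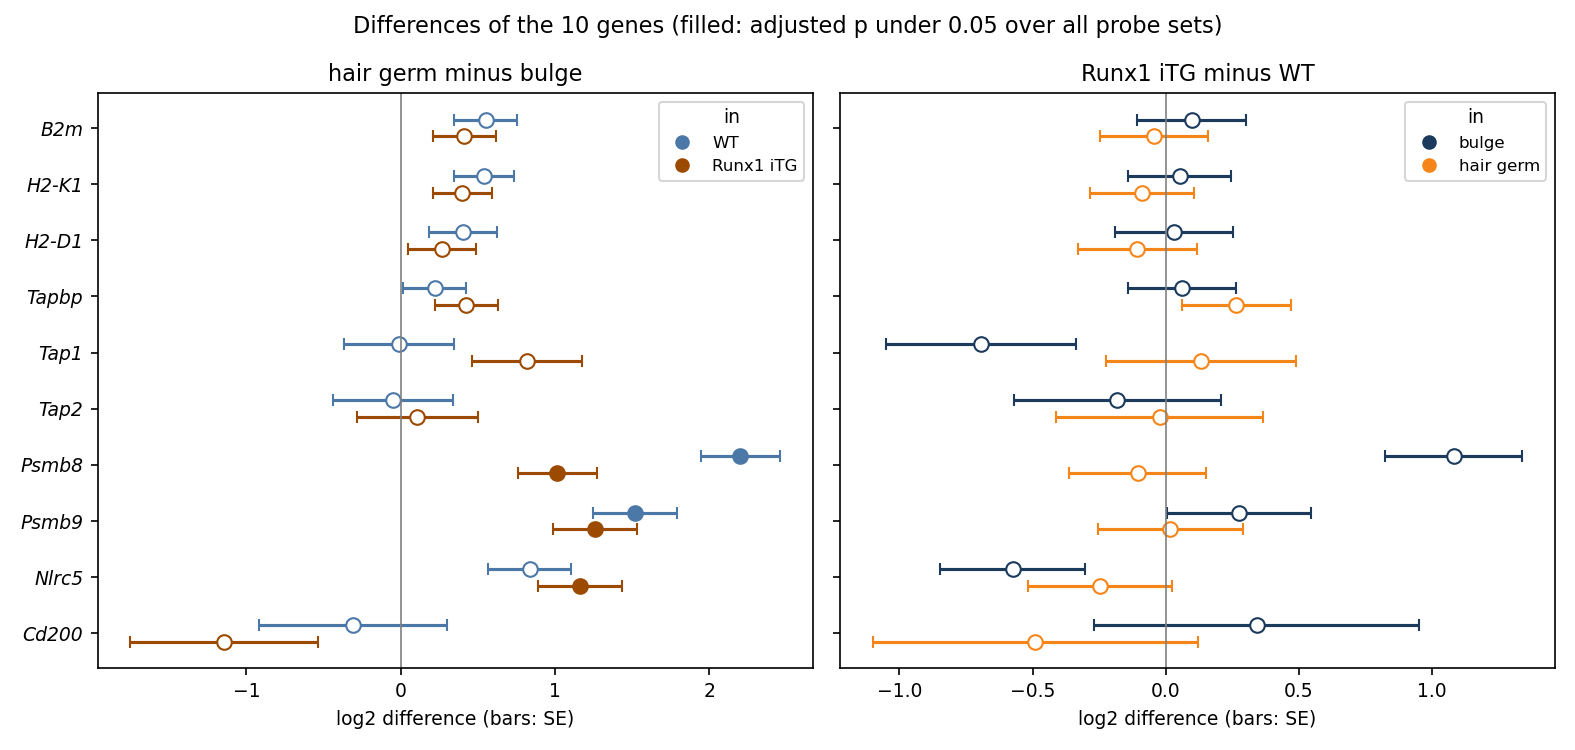
Log2 difference with its SE for each gene's brightest probe set, hair germ minus bulge in each genotype (left) and Runx1 iTG minus WT in each population (right), with filled points for an adjusted p under 0.05. Filled points are Psmb8 and Psmb9 in both genotypes and Nlrc5 in Runx1 iTG, all on the left, and the right panel has none.

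The light and heavy chains were among the brightest signals on the arrays. B2m, the light chain of every classical class I molecule, read 15746 and 13898 in WT bulge, 21983 and 21398 in WT hair germ, 15816 and 15820 in Runx1 iTG bulge, and 19534 and 22657 in Runx1 iTG hair germ. The 2 populations did not overlap, and the genotypes lay close together within each. The averaged difference was 0.48, or 1.40-fold (SE 0.14, limma adjusted p = 0.0536), just outside the threshold, and its second probe set gave 0.56 (SE 0.14, limma adjusted p = 0.0254). The main probe set passed the threshold with quantile normalization, with dim probe sets left out and with 1 probe set per gene. The mean of both probe sets passed as well (limma adjusted p = 0.0416).

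H2-K1, a classical heavy chain, read 11497 and 11401 in WT bulge, 17339 and 16040 in WT hair germ, 11884 and 11871 in Runx1 iTG bulge, and 15750 and 15604 in Runx1 iTG hair germ. Replicates lay close together and all hair germ arrays were higher. The averaged difference was 0.47 (SE 0.14, limma adjusted p = 0.0477), and this call was lost in 13 of 17 alternatives, including each of the 8 that left out an array. The other H2-K1 probe sets gave 1.25 (SE 0.30, limma adjusted p = 0.0208), 0.23 (SE 0.20, limma adjusted p = 0.525) and 0.30 (SE 0.36, limma adjusted p = 0.667). H2-K1 is read by probe sets whose x suffix marks probes that can match other transcripts, so related heavy chains may share this signal.

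H2-D1, the other heavy chain, read 11859 and 9242 in WT bulge, 14977 and 12823 in WT hair germ, 10037 and 11391 in Runx1 iTG bulge, and 11989 and 13814 in Runx1 iTG hair germ. The highest bulge array and the lowest hair germ array nearly met. The averaged difference was 0.34 (SE 0.16, limma adjusted p = 0.206). Like H2-K1, H2-D1 was read from a probe set with the x suffix, so related heavy chains may share this signal. A bright H2-D1 probe set without that suffix gave 0.62 in WT (limma adjusted p = 0.241) and 0.22 in Runx1 iTG (limma adjusted p = 0.707). On it the lowest hair germ array, at 7550, fell below the highest bulge array, at 8012. Another bright one, with the suffix, gave 0.52 in WT (limma adjusted p = 0.217) and 0.30 in Runx1 iTG (limma adjusted p = 0.495). Among the 9 H2-D1 probe sets 1 was called, a dim one in the opposite direction (limma adjusted p = 0.0351), above background on 5 arrays and also with the x suffix. With values below background set to that limit, it was at least 2.41-fold lower in hair germ. In the list of class I chains 10 of 19 genes were measured, and 1 other was called: Mr1, which presents vitamin metabolites to MAIT cells, fell by 1.70 in hair germ (SE 0.22, limma adjusted p = 0.000892). Mr1 read 511 to 683 in bulge and 142 to 235 in hair germ, and its call held in all 17 alternatives.

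Nlrc5 (chr8:94434335-94527272, GRCm38.p6) encodes the transactivator of class I genes. It read 624 and 529 in WT bulge, 1173 and 895 in WT hair germ, 419 and 355 in Runx1 iTG bulge, and 833 and 895 in Runx1 iTG hair germ. The highest bulge array lay below the lowest hair germ array, and Runx1 iTG bulge was the lowest group. Nlrc5 was 2.24-fold higher in hair germ in Runx1 iTG (log2 difference 1.16, SE 0.27, limma adjusted p = 0.0324), a call lost in 9 of 18 alternatives. In WT the difference was 0.84 (SE 0.27, limma adjusted p = 0.128). Averaged, it was 1.00 (SE 0.19, limma adjusted p = 0.00735), lost without an intensity trend (adjusted p = 0.0524) and with the 20-day arrays alone (adjusted p = 0.0978).

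Among 15 measured regulators of class I genes 3 were called, all higher in hair germ, beside 14.0% of all probe sets called in either direction. Besides Nlrc5 they were Irf1, an interferon-induced transcription factor, at 1.59 (SE 0.23, limma adjusted p = 0.00153), and Ifngr1, the ligand-binding chain of the interferon-gamma receptor, at 1.33 (SE 0.23, limma adjusted p = 0.00461). Irf1 read 215 to 311 in bulge and 664 to 1176 in hair germ. With the 20-day arrays alone 1 of these calls was left, with Ifngr1 at an adjusted p of 0.0763. The median of the 15 regulators was 0.08, near the -0.09 of all named genes. Of 24 measured interferon-stimulated genes, 13 were above background on all 8 arrays and 3 were below it on all 8. In hair germ 13 of the 24 had a higher and 11 a lower mean. The 1 called, a share below the 14.0% of all probe sets, was the chemokine Cxcl10 (limma adjusted p = 0.0268). With values below background set to that limit it was at least 4.24-fold higher. Cxcl10 read 39.4 and 4.43 in WT bulge, with 1 of these below background, and its call was lost in 9 of 16 alternatives.

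**Figure D4:**
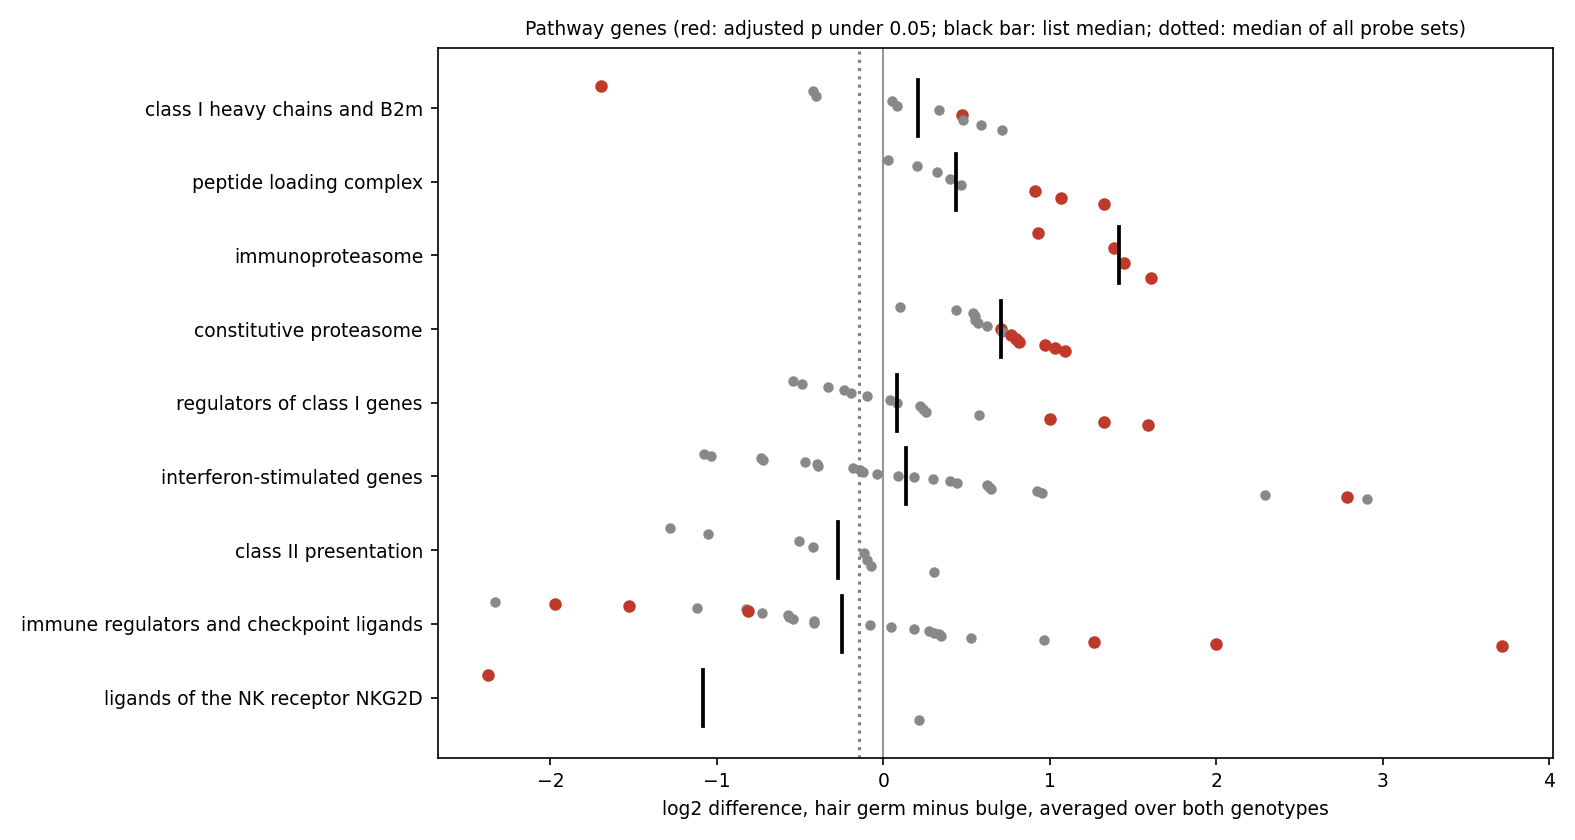
Log2 difference between hair germ and bulge, averaged over both genotypes, for each measured gene of 9 pathway lists, with red points for an adjusted p under 0.05, a black bar for the list median and a dotted line for the median of all probe sets (-0.14). The immunoproteasome and standard proteasome lists lie wholly above 0, and the interferon-stimulated and regulatory lists lie on both sides.

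Cd200, whose product binds an inhibitory receptor on myeloid cells and which is known as a bulge marker in the follicle, went the other way in its mean. It read 744 and 881 in WT bulge, 785 and 542 in WT hair germ, 907 and 1160 in Runx1 iTG bulge, and 204 and 1060 in Runx1 iTG hair germ. The populations overlapped, and the 2 Runx1 iTG hair germ arrays spanned nearly the whole range. The averaged difference was -0.73 (SE 0.43, limma adjusted p = 0.324). Without replicate 2 of Runx1 iTG hair germ, one of the 21-day samples, it was -1.32, and in Runx1 iTG alone it was -2.33. The array left out there read 1060, within the bulge range of 744 to 1160. The array kept, replicate 1, read 204, the lowest Cd200 signal of all arrays, so these wider differences rest on it. The group then rests on a single array that is assumed to vary like the others.

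Other immune regulators were called in both directions, 3 higher and 3 lower of 24 measured, with a median of -0.25, beside 14.0% of all probe sets. With the 20-day arrays alone 3 of the calls were left, with Cd59a (adjusted p = 0.0508) and Cd47 (adjusted p = 0.0568) among those lost. Lgals9, which encodes galectin-9, read 161 to 310 in bulge and 482 to 1340 in hair germ (limma adjusted p = 0.00158). Cd59a, an inhibitor of complement lysis, gave 1.27 (SE 0.19, limma adjusted p = 0.00221). Cd274, which encodes the checkpoint ligand PD-L1, read 148 to 246 in hair germ and was above background on 1 of 4 bulge arrays. With values below background set to that limit it was at least 4.98-fold higher, but its call (limma adjusted p = 0.0166) was lost in 7 of 16 alternatives. Lower in hair germ were Nt5e, the ectonucleotidase CD73 (-1.97, SE 0.27, limma adjusted p = 0.00109), the growth factor Tgfb2 (-1.53, SE 0.23, limma adjusted p = 0.00226) and Cd47, a signal against phagocytosis (-0.81, SE 0.14, limma adjusted p = 0.00406).

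Markers of other cell types were read on the same arrays. Ptprc, the leukocyte marker CD45, was below background on all 8 arrays, at 26.3 or less. The summed signal of 10 general immune-cell markers was 880 to 888 in WT bulge, 460 to 653 in WT hair germ, 442 to 687 in Runx1 iTG bulge and 218 to 512 in Runx1 iTG hair germ. None of these 10 was called between the populations, and 1 was above background on all arrays. Among 10 markers of antigen presenting cells, 3 had a higher and 7 a lower averaged mean in hair germ. On that average 0 were called higher and 1 lower, and in WT alone 1 was called higher and 1 lower. Mfge8 read 3014 and 3468 in WT bulge and 250 and 140 in WT hair germ. In Runx1 iTG it read 4282 and 5835 in bulge and 2536 and 615 in hair germ. The one called higher in WT was Cd83, at 5.44 and 8.81 in WT bulge, both below background, and 87.2 and 89.1 in WT hair germ. In Runx1 iTG Cd83 read 86.4 and 57.9 in bulge and 22.2 and 30.7 in hair germ, the latter below background. The Langerhans cell marker Cd207 was above background on 2 bulge arrays (41.8 and 35.8) and on no hair germ array. Macrophage markers had 5 higher and 5 lower averaged means with none called, and summed to 429 to 668 in bulge and 359 to 640 in hair germ. T cell markers, none called, summed to 1413 to 2466 in bulge and 792 to 1843 in hair germ, most of it from Thy1, and the other 7 read 178 or less.

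Markers of other skin cells were mostly lower in hair germ. Interfollicular epidermis had 8 of 10 markers called lower and 1 higher (median -1.04), with sums of 76934 to 104297 in bulge and 35161 to 59231 in hair germ. Fibroblast markers had 5 of 10 called lower and summed to 12033 to 17108 in bulge and 1031 to 1956 in hair germ. Endothelial and melanocyte markers had 2 called lower each. The part of these cell types in the differences of the 10 genes was not tested.

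Between genotypes none of the 10 genes was called. In bulge 0 of 10 were called, against 0.00444% of all probe sets, and 1 of 10 had an unadjusted p under 0.05, against 2555 probe sets. In hair germ 0 of 10 were called, against 0.00888%, and none had an unadjusted p under 0.05, against 2832 probe sets. Averaged over both populations 0 of 10 were called, against 0.0377%, with 1 gene at an unadjusted p under 0.05, against 3362 probe sets. With so few calls over the whole array in limma, these counts could not separate the 10 genes from the rest. No gene of the 9 pathway lists was called between genotypes either.

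Of the 10 genes, Psmb8 had the smallest unadjusted p between genotypes. In bulge it was higher in Runx1 iTG by 1.08 (SE 0.26, 95% interval 0.51 to 1.66, limma adjusted p = 0.647). Its bulge arrays did not overlap between genotypes, and neither did those of B2m, H2-K1, Tap1, Nlrc5 and Cd200. The share of all probe sets with this pattern was not taken. In hair germ the difference was -0.11 (SE 0.26, limma adjusted p = 0.996). The genotype difference in hair germ minus that in bulge was -1.19 (SE 0.36, limma adjusted p = 1), and this interaction was called for 0 of 10 genes and for 0% of all probe sets. Its neighbours in the cluster were not called in bulge either, with Psmb9 at 0.28 (SE 0.27) and Tap1 at -0.69 (SE 0.36). Nlrc5 gave -0.57 (SE 0.27) in bulge and -0.25 (SE 0.27) in hair germ, neither called.

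For the light chain and heavy chains the genotype intervals lay on both sides of no difference. In bulge the 95% interval was -0.36 to 0.55 for B2m, -0.38 to 0.49 for H2-K1 and -0.47 to 0.53 for H2-D1. In hair germ it was -0.50 to 0.41 for B2m, -0.52 to 0.34 for H2-K1 and -0.60 to 0.39 for H2-D1. The farthest of these bounds was -0.60. In size the intervals reached at least as far as the averaged hair germ against bulge differences of the same genes. Genotype differences of that size were therefore not excluded with 2 arrays per group. Cd200 had a far wider interval, from -1.85 to 0.87 in hair germ.

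Across the 8 arrays the genes fell into sets that varied together, given as a description since the arrays share their groups. B2m had a Pearson r of 0.954 with H2-K1, 0.895 with Psmb9 and 0.84 with Nlrc5, but 0.335 with Tap1 and 0.133 with Tap2. Psmb8 and Psmb9 had an r of 0.925, and Tap1 and Tap2 one of 0.625. Of 10909 genes compared over the 8 arrays, those most like B2m were Hmgn5 (r = 0.99), Ifitm3 (0.984), Cat (0.981), Retreg1 (0.977) and Cops8 (0.977). Those most like Tap1 were Gyg (0.971), Ngly1 (0.943), Srp68 (0.927), Glud1 (0.918) and Selenoo (0.908). For Cd200 they were Arid3a (0.984), Fbxl7 (0.979), Magef1 (0.95), Zbtb26 (0.943) and Slc19a1 (0.94). Each of these, like Cd200, had its lowest signal on Runx1 iTG hair germ replicate 1, where Fbxl7 was below background. Likeness without that array was not tested.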

How the data were processed

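The authors deposited linear intensity values of 45101 probe sets, with a trimmed mean of 500 on each array. Per the labels' protocols, 5 ng of total RNA was amplified with NuGEN Ovation Pico and labelled with Encore. The summary program was not given in the sources used here. Without the 64 control probe sets, these deposited intensities were brought to one 75th percentile on all arrays, floored at 2.42 and put on the log2 scale. One limma 3.58.1 fit (R 4.3.3) with a mean per group and an intensity trend covered all 45037 probe sets and 8 arrays, with 4 residual degrees of freedom and Benjamini-Hochberg adjustment over all probe sets. The fit was run on simulated data with independent normal noise and no sex or age differences, so that check does not cover either. The labels call the samples biological replicates, and p-values measure the spread among them, sex included. The precision is limited by the number of arrays (median SE of a difference 0.604). Gene names came from the platform annotation, and all 27 member probe sets matched the current symbol. The members and the 9 pathway and 10 marker lists were chosen with earlier results of these data known. Named beside the members are pathway genes past the threshold or with the smallest p, sort genes and the 5 genes most like B2m, Tap1 and Cd200. Alternatives were other normalizations, floors, filters, probe set rules, a replicate block, the 20-day arrays alone and leaving out each array.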

Additional observations from a re-analysis of the deposited data

How the results depend on the processing

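The number of the 10 genes called in hair germ against bulge was 2 in WT, 3 in Runx1 iTG and 4 averaged. In WT it was 1 with the mean of a gene's probe sets, without an intensity trend, with the 20-day arrays alone and with only the groups compared. In Runx1 iTG it was 0 without an intensity trend, with the 20-day arrays alone and with only the groups compared. The 20-day arrays leave 1 array in each Runx1 iTG group, and the differences there were 1.17 for Psmb8, 1.38 for Psmb9 and 0.99 for Nlrc5. Averaged, it was 2 without an intensity trend and with the 20-day arrays alone. With 1 array left out it ranged from 1 to 2 in WT, 0 to 2 in Runx1 iTG and 3 to 4 averaged. The averaged calls were then not the same genes, since H2-K1 was lost whichever array was left out. Without Runx1 iTG hair germ replicate 2 they held Cd200, lower, in its place, and that group then rested on the array with the lowest Cd200 signal. Over all probe sets, deviations of same-numbered samples from their group means had correlations from -0.0321 to 0.0725. With 2 arrays per group and dim probe sets included, this cannot decide whether replicate numbers pair the samples. Each number is also a sex. With the replicate block the counts were 2, 2 and 3. Calls lost were Psmb8 in Runx1 iTG (adjusted p = 0.0582) and H2-K1 averaged (adjusted p = 0.0758). Genotype calls stayed at 0 in every alternative run. Of the members' single differences under the alternatives, 1170 kept their direction and side of the threshold, 53 lost a call, 6 gained one and 1 changed direction, where differences smaller than their SE were given no direction. That one was Psmb8 in Runx1 iTG, at -0.72 with the mean of its probe sets (adjusted p = 0.421), since 1 of them was below background on all arrays. Alternatives for the pathway lists were added after the data were seen. Probe sets near background limit what can be read of Tap1's further probe sets and of Cd274 and Cxcl10.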

Other observations

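Class II presentation, the pathway that shows peptides to CD4 T cells, gave 0 calls among 8 measured genes between hair germ and bulge, with 1 gene at an unadjusted p under 0.05 in limma. Their median log2 difference was -0.27. Cd74, the invariant chain, read 424 and 601 in WT bulge, 434 and 558 in WT hair germ, 218 and 251 in Runx1 iTG bulge, and 369 and 363 in Runx1 iTG hair germ. Its averaged difference was 0.31 (SE 0.23, limma adjusted p = 0.447). H2-Aa, a class II alpha chain, spread from 24.2 to 601 within WT bulge alone, so the 2 WT bulge arrays lay farther apart than any groups did. Ciita, the class II transactivator, gave -0.51 (SE 0.54, limma adjusted p = 0.609).

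H60c, a skin-restricted ligand of the activating receptor NKG2D, stood lower in hair germ. Of 9 listed ligands of NKG2D 2 were measured, and 1 was called, beside 14.0% of all probe sets. The other, Ulbp1, had a higher averaged mean in hair germ and was not called. H60c read 1143 and 1092 in WT bulge, 287 and 297 in WT hair germ, 293 and 381 in Runx1 iTG bulge, and 32.9 and 68.9 in Runx1 iTG hair germ. The 4 groups formed steps, with WT hair germ and Runx1 iTG bulge overlapping. The averaged difference between hair germ and bulge was -2.37 (SE 0.29, limma adjusted p = 0.000679), a call that held in all 17 alternatives run on it. Averaged over both populations, Runx1 iTG minus WT was -2.18 (limma adjusted p = 0.0632), which was not called.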
